A study of Mus musculus with 21 samples.

Results

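The genes Arl4d, Zfp395, Colgalt2, Cntfr, Akna, Siglecf, Has1, Tinagl1 and Lrrn2 had low values in the cecum of mice fed broccoli powder. They are 9 of the 25361 genes in a table of RNA counts from mouse cecum, and they were picked from these libraries for low values on 1 or more diets with broccoli powder. Their low levels against the control diet are therefore given as a description, and the calls of the all-gene fit for these contrasts are counted without being read as evidence. C57BL/6 mice, a common inbred strain, were 3 weeks old at the start and ate the Total Western Diet, a rodent diet modelled on the nutrient intake of people in the United States, for 6 weeks. They then ate the same diet for 3 more weeks with 0% (the control, n = 6), 0.5%, 1.0% or 2.5% (n = 5 each) broccoli powder, so every group had the Western diet and no group had ordinary chow. Each of the 21 libraries is bulk RNA from the cecum of 1 mouse, so fewer cells of a type and less RNA per cell cannot be told apart.

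The 9 genes do not form a known pathway. Arl4d is a small GTPase of the ARF family that brings cytohesins, the exchange factors for ARF6, to the plasma membrane. Zfp395 is a zinc finger transcription factor, and Akna is an AT-hook protein first described as a regulator of Cd40 and its ligand and later as a centrosomal protein of microtubule organisation. Cntfr is the ligand-binding subunit of the receptor for ciliary neurotrophic factor and signals through Il6st and Lifr. Siglecf is a sialic acid binding lectin known from eosinophils and alveolar macrophages, and intestinal tuft cells also carry it. Colgalt2 adds galactose to hydroxylysine in collagen, Has1 is 1 of the 3 synthases of hyaluronan, and Tinagl1 is a secreted protein of basement membranes. Lrrn2 is a membrane protein with leucine-rich repeats that is known mainly from the nervous system.

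The genes fell into 3 shapes over the doses, and no mean declined at every step of rising dose. These shapes describe the means only. In the all-gene fit, 0 of 15652 genes passed after adjustment for any difference among the 3 broccoli diets. The same held for each pair of these diets. Arl4d, Cntfr, Akna and Zfp395 were lower at 0.5% and 2.5% than at 1.0%, where Arl4d was close to the control and the other three lay between. Colgalt2 and Tinagl1 lay at about the same lower level on all 3 broccoli diets. Siglecf, Has1 and Lrrn2 were lowest at 1.0% and nearer the control at 0.5% and 2.5%.

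To show what stands in front of the genes, the 250 bases before each annotated start were read from RefSeq (GRCm38.p6). This gave 14 windows for 7 of the 9 genes. Windows are printed for a pair of the first shape, Arl4d and Akna, and a pair of the third, Has1 and Siglecf. Akna had a second window, for another start, which held no match and is not printed. They run 5′ to 3′ on the strand of the gene, capitals mark the match to a motif, and the Has1 window is 233 bases because 17 bases annotated as exon were left out. Arl4d lies at chr11:101665291-101665540 (plus strand), Akna at chr4:63403446-63403695 (minus), Has1 at chr17:17855206-17855438 (minus) and Siglecf at chr7:43351091-43351340 (plus).
Arl4d: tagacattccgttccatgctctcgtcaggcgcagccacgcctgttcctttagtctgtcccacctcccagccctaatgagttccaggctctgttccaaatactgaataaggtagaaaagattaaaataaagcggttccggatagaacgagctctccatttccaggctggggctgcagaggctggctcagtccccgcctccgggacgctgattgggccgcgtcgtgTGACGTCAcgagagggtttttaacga
Akna: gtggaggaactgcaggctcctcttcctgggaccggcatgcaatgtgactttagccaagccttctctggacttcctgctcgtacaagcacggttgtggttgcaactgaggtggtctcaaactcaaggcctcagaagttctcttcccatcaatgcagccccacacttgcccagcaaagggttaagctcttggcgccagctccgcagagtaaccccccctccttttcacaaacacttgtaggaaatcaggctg
Has1: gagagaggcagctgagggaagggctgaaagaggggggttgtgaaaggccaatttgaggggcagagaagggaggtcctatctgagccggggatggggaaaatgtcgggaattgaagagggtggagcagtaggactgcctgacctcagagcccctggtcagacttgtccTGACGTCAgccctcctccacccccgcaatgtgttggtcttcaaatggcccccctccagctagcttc
Siglecf: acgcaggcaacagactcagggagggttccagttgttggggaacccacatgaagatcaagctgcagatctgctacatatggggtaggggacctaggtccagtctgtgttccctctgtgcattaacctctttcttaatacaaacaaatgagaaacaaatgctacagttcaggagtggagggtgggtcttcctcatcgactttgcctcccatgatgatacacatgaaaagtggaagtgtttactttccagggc
Arl4d and Has1, which had different dose shapes, both hold the letters TGACGTCA, a cyclic AMP response element, at 26 and 83 bases before the start. The 83 includes the 17 bases left out, which lie between the end of the printed Has1 window and the start. The letters TGACGTCA occur in 1.55% of the 32851 windows of all genes. The other motifs searched on both strands were TATAAA (12.4% of windows), GGGCGG (32.7%), CACGTG (6.02%), TNGCGTG (4.10%) and TGACNNNGC (10.2%). No window of the 7 genes that had one held matches to more than 1 of the 6 motifs, so no matches to different motifs overlapped. In the windows not printed, GGGCGG occurred before Cntfr and Tinagl1, and TNGCGTG, the element bound by the aryl hydrocarbon receptor, occurred in 1 Lrrn2 window within bases annotated as exon. A match is a description of letters and not evidence of binding.

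The libraries held 28514263 to 58594569 counts, of which 22.1% to 31.8% were mitochondrial. Epithelial markers were present throughout, with 9 of 9 genes tested and a summed level of 8322 to 12300 CPM (counts scaled to the size of the library, with edgeR's TMM factors). A group of 6 libraries, 1 or 2 of each diet, stood apart by high levels of small intestine markers, whose mean log2 CPM was 2.56 to 5.73 there and 0.58 to 1.51 in the other 15. They were 0% replicate 5, 0.5% replicates 1 and 4, 1.0% replicate 1 and 2.5% replicates 1 and 2. Animal numbers ran in blocks by diet (8 to 17, 18 to 26, 31 to 37 and 40 to 46, with 3 mice numbered above 70), so anything tied to that numbering cannot be told apart from diet. Of 15652 genes tested with edgeR's quasi-likelihood test, 18 (0.115%) passed an adjusted p of 0.05 in either direction at 1 or more doses. These p-values weigh a difference between diets against the spread between mice.

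Levels per kilobase of exon, averaged over all libraries, ran from 15.3 CPM per kb for Tinagl1 to 0.187 for Has1. Arl4d followed Tinagl1 with 8.73 CPM per kb, then Zfp395 (5.18), Cntfr (2.34), Colgalt2 (1.11), Lrrn2 (0.986), Akna (0.837) and Siglecf (0.632). Has1 rested on 8 to 58 counts per library and Siglecf on 41 to 107, whereas Tinagl1 had 1817 to 4015, so the precision differed widely. All levels in the paragraphs that follow are CPM, and changes are log2 changes against 0% from 1 fit of all 21 libraries. The 3 doses share the 0% libraries, so their changes are not independent of each other.

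**Figure D1:**
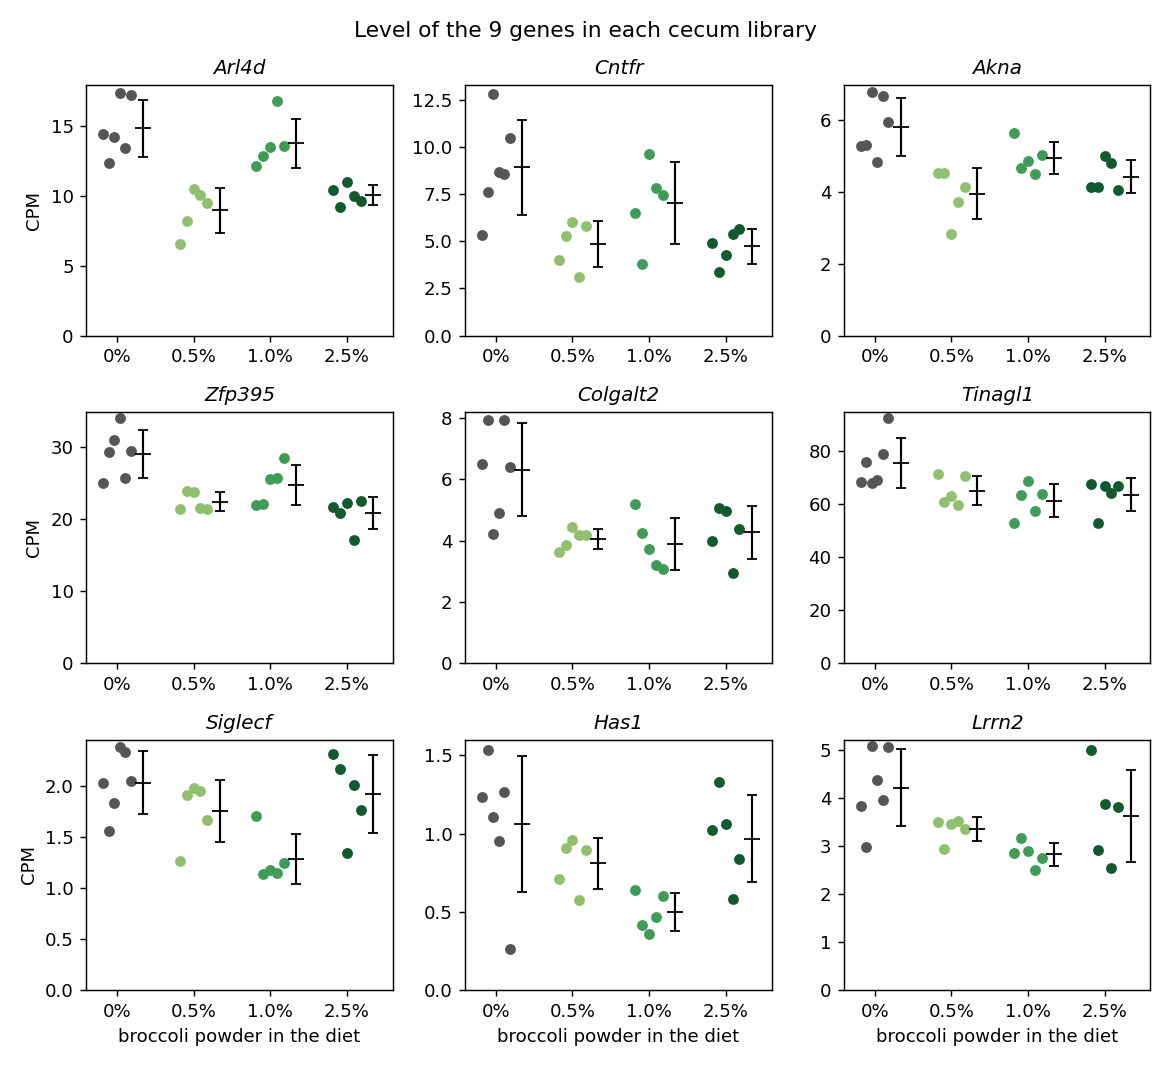
CPM of each of the 9 genes (vertical axis, from 0, with a scale of its own in each panel) against the share of broccoli powder (horizontal axis). Each point is 1 mouse, and the bars show the mean ± SD (n = 6 at 0% and 5 at each other diet); the top row and Zfp395 hold the genes whose broccoli means were highest at 1.0%, and the bottom row those lowest at 1.0%.

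Arl4d (chromosome 11, 101665541 to 101667832 of GRCm38, plus strand) was lower at 0.5% and at 2.5% but close to the control at 1.0%. The 6 control mice ran from 12.4 to 17.4 CPM with a median of 14.3. At 0.5% the values were 6.54, 8.23, 10.51, 10.1 and 9.51 CPM, at 1.0% they were 12.2, 12.9, 13.5, 16.8 and 13.6, and at 2.5% they were 10.45, 9.23, 11.01, 10.03 and 9.63. All 10 mice of the lowest and the highest dose lay below every control mouse, whereas 4 of 5 at 1.0% lay inside the control range. The means were 14.9 ± 2.04 CPM (SD, n = 6), 8.98 ± 1.61, 13.8 ± 1.77 and 10.1 ± 0.695 (n = 5 each) from 0% to 2.5%. The log2 changes against 0% were -0.72 (SE 0.12), -0.11 (SE 0.12) and -0.56 (SE 0.12) in the order of the doses. In the order of the means, 1.0% and 2.5% did not overlap, while 0% overlapped 1.0% and 2.5% overlapped 0.5%. Between the broccoli diets, the log2 level at 1.0% was 0.62 (SE 0.12) above that at 0.5%, and that at 2.5% was 0.45 (log2 change -0.45, SE 0.12) below that at 1.0%. Neither of these differences passed edgeR's quasi-likelihood test after adjustment. The small change at 1.0% was -0.06 without 0% replicate 4 and -0.19 without 1.0% replicate 4.

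Cntfr (chromosome 4, 41657498 to 41697089, minus strand) had the same shape with a wider spread. The controls ran from 5.35 to 12.8 CPM with a median of 8.63. The mice on 0.5% had 4.03, 5.29, 6.01, 3.11 and 5.82 CPM, those on 1.0% had 6.49, 3.77, 9.65, 7.81 and 7.44, and those on 2.5% had 4.92, 3.39, 4.28, 5.40 and 5.67. Both of the low diets overlapped the control range through its lowest mouse, 0% replicate 1, and 3 of 5 mice on each lay below it. The means were 8.92 ± 2.54 CPM at 0%, 4.85 ± 1.24 at 0.5%, 7.03 ± 2.16 at 1.0% and 4.73 ± 0.918 at 2.5%. The log2 changes were -0.88 (SE 0.23), -0.34 (SE 0.22) and -0.92 (SE 0.23). Every pair of neighbours in the order of the means overlapped. The change at 1.0% rested on single mice, being -0.19 without 1.0% replicate 2 and -0.48 without 1.0% replicate 3.

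Akna (chromosome 4, 63367125 to 63403354, minus strand) was lowest at 0.5%. The controls ran from 4.83 to 6.78 CPM (median 5.63). The values were 4.53, 4.53, 2.83, 3.73 and 4.13 CPM at 0.5%, 5.66, 4.65, 4.86, 4.49 and 5.02 at 1.0%, and 4.13, 4.14, 5.01, 4.81 and 4.04 at 2.5%. All 5 mice at 0.5% lay below every control, as did 4 of 5 at 2.5% and 2 of 5 at 1.0%. From means of 5.80 ± 0.801, 3.95 ± 0.706, 4.94 ± 0.449 and 4.43 ± 0.451 CPM, the log2 changes were -0.56, -0.23 and -0.39 (SE 0.13 each). In the order of the means (0%, 1.0%, 2.5%, 0.5%) all neighbours overlapped. An antisense gene, Aknaos, overlaps exons of Akna on the other strand, and with the counting's strand setting unknown here, reads of the pair cannot be told apart.

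Zfp395 (chromosome 14, 65358389 to 65398930, plus strand) was lower on all 3 diets, least at 1.0% and most at 2.5%. Controls ran from 25.1 to 34.01 CPM (median 29.4). The mice had 21.4, 23.9, 23.8, 21.6 and 21.4 CPM at 0.5%, 21.9, 22.1, 25.6, 25.7 and 28.4 at 1.0%, and 21.6, 20.8, 22.2, 17.1 and 22.5 at 2.5%. No mouse on 0.5% or 2.5% reached the control range, and at 1.0% 3 of 5 lay inside it. The means were 29.1 ± 3.34, 22.4 ± 1.33, 24.8 ± 2.75 and 20.9 ± 2.20 CPM, with log2 changes of -0.38, -0.23 and -0.48 (SE 0.09 each). In the order of the means (0%, 1.0%, 0.5%, 2.5%) all neighbours overlapped.

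Colgalt2 (chromosome 1, 152399830 to 152510695, plus strand) lay near 4 CPM on every broccoli diet. The controls were spread from 4.22 to 7.94 CPM with a median of 6.46. At 0.5% the mice had 3.63, 3.85, 4.46, 4.18 and 4.17 CPM, at 1.0% 5.18, 4.26, 3.74, 3.21 and 3.07, and at 2.5% 3.98, 5.07, 4.96, 2.95 and 4.37. All 15 lay below the control mean, but only 9 lay below the lowest control, so each diet overlapped the control range. The means were 6.32 ± 1.53, 4.06 ± 0.323, 3.89 ± 0.859 and 4.26 ± 0.860 CPM, and the log2 changes were -0.64 (SE 0.17), -0.70 (SE 0.17) and -0.57 (SE 0.17). The largest difference between any pair of broccoli diets was a log2 change of 0.13 (SE 0.18) at 2.5% against 1.0%.

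Tinagl1 (chromosome 4, 130164454 to 130175122, minus strand), the most abundant of the 9, was modestly lower on all diets. Controls ran from 67.8 to 92.5 CPM (median 72.5). The values were 71.3, 60.8, 62.9, 59.6 and 70.4 CPM at 0.5%, 52.8, 63.5, 68.8, 57.2 and 63.6 at 1.0%, and 67.4, 52.6, 66.6, 64.0 and 66.8 at 2.5%. All 5 mice at 2.5% lay below every control, by a margin of less than 1 CPM for the highest, and 3 of 5 and 4 of 5 did so at 0.5% and 1.0%. The means were 75.4 ± 9.49, 65.0 ± 5.48, 61.2 ± 6.22 and 63.5 ± 6.22 CPM, and the log2 changes were -0.21, -0.30 and -0.25 (SE 0.09 each). The highest control, 0% replicate 6, carried part of this: without it the changes were -0.15, -0.23 and -0.18.

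Siglecf (chromosome 7, 43351341 to 43359531, plus strand) was lowest at 1.0%. Controls ran from 1.57 to 2.39 CPM (median 2.04). The mice had 1.27, 1.91, 1.99, 1.95 and 1.67 CPM at 0.5%, 1.71, 1.14, 1.18, 1.15 and 1.25 at 1.0%, and 2.31, 2.17, 1.34, 2.01 and 1.76 at 2.5%. At 1.0% 4 of 5 mice lay below every control, and at each other dose 1 of 5 did. The means were 2.04 ± 0.310, 1.76 ± 0.300, 1.29 ± 0.241 and 1.92 ± 0.382 CPM, with log2 changes of -0.21 (SE 0.18), -0.66 (SE 0.19) and -0.09 (SE 0.18). The small values at the outer doses rested on single mice. The change at 2.5% was 0.02 without 2.5% replicate 3 and -0.16 without 2.5% replicate 1, and the change at 0.5% was -0.12 without 0.5% replicate 1. Without the 6 libraries high in small-intestine RNA they were -0.21 at 2.5% and -0.09 at 0.5%.

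Has1 (chromosome 17, 17843323 to 17855205, minus strand), the least abundant, had its lowest mean at 1.0%. Controls ran from 0.264 to 1.54 CPM with a median of 1.17, the low end being 0% replicate 6 with 8 counts. The values were 0.713, 0.906, 0.960, 0.576 and 0.894 CPM at 0.5%, 0.642, 0.419, 0.359, 0.470 and 0.602 at 1.0%, and 1.03, 1.33, 1.06, 0.583 and 0.841 at 2.5%. That control mouse lay below all 15 broccoli mice, so the control range covered every value but all 5 mice at 1.0% lay below the other 5 controls. The means were 1.06 ± 0.435, 0.810 ± 0.160, 0.498 ± 0.120 and 0.969 ± 0.278 CPM, and the log2 changes were -0.39 (SE 0.31), -1.09 (SE 0.32) and -0.14 (SE 0.31). Without 0% replicate 6 they were -0.59, -1.28 and -0.33. The change at 2.5% was 0.00 to 2 decimals without 2.5% replicate 4, and that at 0.5% was -0.16 without the 6 libraries high in small-intestine RNA.

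Lrrn2 (chromosome 1, 132880273 to 132940005, plus strand) was lowest at 1.0% with little spread there. Controls ran from 2.99 to 5.09 CPM (median 4.17). The mice had 3.503, 2.94, 3.45, 3.53 and 3.36 CPM at 0.5%, 2.85, 3.17, 2.89, 2.51 and 2.76 at 1.0%, and 5.01, 2.92, 3.87, 2.54 and 3.82 at 2.5%. At 1.0% 4 of 5 lay below every control, and at 2.5% 2 of 5 did while the highest came close to the highest control. The means were 4.22 ± 0.80, 3.36 ± 0.242, 2.83 ± 0.238 and 3.63 ± 0.960 CPM, with log2 changes of -0.33, -0.57 and -0.22 (SE 0.16 each). The last was -0.36 without 2.5% replicate 1 and -0.11 without 2.5% replicate 4.

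**Figure D2:**
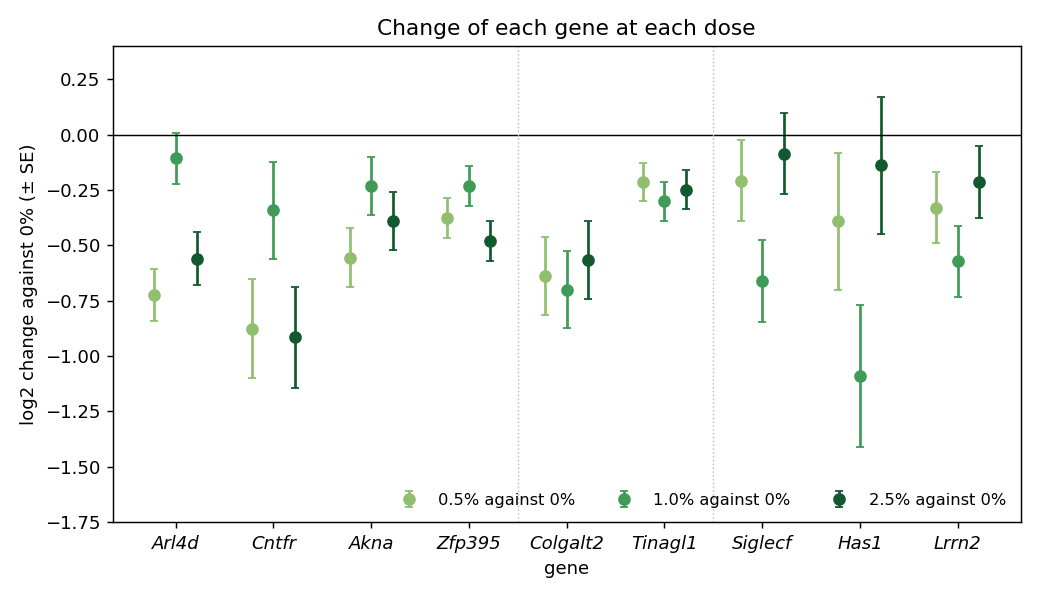
Log2 change of each gene against 0% (vertical axis, ± SE) for the 3 doses (colours), from the fit of all 21 libraries. Dotted lines separate the genes least low at 1.0%, the genes at a like level on all 3 diets and the genes lowest at 1.0%; all values lie below 0, from -0.09 for Siglecf at 2.5% to -1.09 for Has1 at 1.0%.

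All 9 genes had a negative change at every dose, which the choice of the genes favours. The number passing edgeR's quasi-likelihood test (Benjamini-Hochberg adjusted p under 0.05 over all 15652 genes) was 1 at 0.5%, Arl4d, where 0.00639% of all genes passed as lower. It was 0 at 1.0% (0.0% of all genes) and 1 at 2.5%, Zfp395 (0.0128%). For the mean of the 3 diets it was 0 (0.0%), and for a straight line over dose 0 (0.00639%). Genes with every mouse of the dose below every control numbered 3 at 0.5% (Arl4d, Zfp395, Akna; 0.275% of all genes), 0 at 1.0% (0.0447%) and 3 at 2.5% (Arl4d, Zfp395, Tinagl1; 0.211%). The rule used these contrasts, so nothing is read from the counts. With limma voom, or with only the 2 diets compared in the fit, neither call was made. Without the 6 libraries high in small-intestine RNA the count at 0.5% was 0, and without the mice numbered above 70 it was 0 at both doses. The log2 change of Arl4d at 0.5% was -0.71, -0.73, -0.68 and -0.81 in these 4 fits, in the order named. That of Zfp395 at 2.5% was -0.48 with limma voom, with only the 2 diets and without the mice numbered above 70. Leaving out 1 library at a time kept the call of Arl4d at 0.5% in 6 of 21 fits, those without 0% replicate 2 or 5, 0.5% replicate 3, 1.0% replicate 1 or 4, or 2.5% replicate 1. At 2.5% the count was 1 in 6 of the 21 fits, those without 0% replicate 1 or 5, 1.0% replicate 1, 2 or 5, or 2.5% replicate 2. It was 2 (Arl4d and Zfp395) without 0.5% replicate 1 or 2.5% replicate 1, and 0 in the other fits.

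The families and partners of the 9 genes were listed for their relation to them, not for their level on these diets, and were tested. Of 104 such genes, 103 had a row and 95 were tested, and 0 passed at any dose with edgeR's quasi-likelihood test. At an unadjusted p under 0.05, 13 (13.7%), 3 (3.16%) and 11 (11.6%) did so at 0.5%, 1.0% and 2.5%, beside 7.14%, 3.18% and 8.43% of all genes. Of the 95, 62 (65.3%), 67 (70.5%) and 63 (66.3%) had negative changes, beside 50.8%, 50.6% and 53.1% of all genes, and nothing particular to the list is read from this.

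Of the close relatives of Arl4d, Arl4c was also lowest at 0.5% and Arl4a was highest at 2.5%, and neither passed the test. Arl4a, which shares its membrane targeting and cytohesin binding, stood at 129 ± 11.7 CPM at 0%, 133 ± 19.8 at 0.5%, 121 ± 5.81 at 1.0% and 171 ± 43.7 at 2.5%. Its log2 change at 2.5% was 0.40 (SE 0.13; edgeR adjusted p = 0.311), the opposite sign to that of Arl4d. It passed the test without the 6 libraries high in small-intestine RNA, and without 2.5% replicate 1. Arl4c went from 6.59 ± 0.895 to 4.66 ± 0.596 CPM at 0.5%, a log2 change of -0.50 (SE 0.13; adjusted p = 0.589), and had -0.17 and -0.12 at the other doses. The difference between Arl4d and either relative was not tested.

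Zfp704, a paralogue of Zfp395, stood at 77.7 ± 5.34 CPM at 0% with log2 changes of 0.06, 0.01 and 0.06 (SE 0.06 each). Colgalt1, the broadly expressed relative of Colgalt2, stood at 53.4 ± 3.49 CPM and had log2 changes of 0.00 to 2 decimals, 0.05 and -0.03 (SE 0.06 each). Across the 19 genes of collagen modification, 14, 11 and 16 had negative changes, with medians of -0.14, -0.06 and -0.11, and 0 passed. Over all genes tested the medians were 0.00 to 2 decimals at 0.5% and 1.0% and -0.01 at 2.5%.

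The signalling subunits that Cntfr needs were abundant and had small log2 changes, none past the test. Il6st stood at 116 ± 10.4 CPM at 0% and had log2 changes of -0.05, -0.11 and -0.10 (SE 0.09 each), and Lifr stood at 19.9 ± 2.22 CPM with -0.12, -0.04 and -0.03 (SE 0.12 each). The counts of the ligands were at or near 0: Cntf had 0 counts in all 21 libraries, and Clcf1 had 67 counts in all. The 0 for Cntf allows up to 0.00353 CPM only if its reads could be counted, which was not tested. A count of 0 in all libraries was shared by 5881 genes. Mzb1 was among them, although its list, B and plasma cells, summed to 414 to 563 CPM at 0%. Absence of Cntf RNA is therefore not read from its counts. Stat3, the transcription factor downstream, had log2 changes of -0.17, -0.12 and -0.18 (SE 0.06 each; adjusted p = 0.676, 0.999 and 0.424). For Akna, Cd40 stood at 1.36 ± 0.578 CPM at 0% with log2 changes of -0.09, -0.06 and 0.01 (SE 0.31 each), and Cd40lg had 24 counts in all, too few to test.

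Markers of eosinophils were close to absent, although Siglecf was measured in every library. Of 9 such genes, 7 averaged under 0.1 CPM, Ear6 was at 0, and the granule genes Epx and Prg2 had 39 and 33 counts in all, and the receptor Ccr3 had 23. Their summed level was 0.565 to 2.71 CPM on the control diet and 0.367 to 0.802, 0.655 to 1.15 and 0.642 to 1.19 CPM on the diets of rising dose. Tuft cell markers, by contrast, summed to 77.6 to 108 CPM, and Dclk1, a tuft cell kinase also found in neurons, stood at 32 ± 3.14 CPM at 0% and 28.6 ± 1.65 at 1.0% (log2 change -0.16), with log2 changes of 0.02 at 0.5% and -0.11 at 2.5% (SE 0.09 each). Il25 and Il17rb of the tuft cell list averaged under 0.1 CPM. The medians of the 9 tested tuft cell genes were 0.09, -0.07 and -0.07 at the 3 doses, with 2, 6 and 6 negative. Those of the 2 tested eosinophil genes were -1.04, -0.819 and -0.425, with 2, 1 and 2 negative and 0 past the test. The part of either list in the diet differences of Siglecf was not tested. Siglece, a related lectin of myeloid cells, had log2 changes of -0.82 (SE 0.36), -0.30 (SE 0.35) and -0.50 (SE 0.36; adjusted p = 0.685, 0.999 and 0.719).

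The other hyaluronan synthases were measured at low levels too. Has2 stood at 0.550 ± 0.445, 0.556 ± 0.170, 0.401 ± 0.156 and 0.366 ± 0.192 CPM from 0% to 2.5%, and Has3 at 1.72 ± 0.404, 2.26 ± 0.582, 1.58 ± 0.233 and 2.21 ± 0.328. Has3 had its lowest mean at 1.0% and Has2 at 2.5%, and neither passed the test at any dose. The log2 changes of Has3 were 0.40, -0.12 and 0.36 (SE 0.19 each), of opposite sign to those of Has1 at 0.5% and 2.5%. Those of Has2 were 0.00 to 2 decimals (SE 0.44), -0.46 (SE 0.45) and -0.61 (SE 0.47). Tinag, the paralogue of Tinagl1, had log2 changes of 0.06, 0.17 and 0.20 (SE 0.11 each), all of opposite sign to those of Tinagl1. Of 22 genes of this list of basement membrane proteins, 16, 17 and 17 had negative changes with medians of -0.09, -0.09 and -0.07, and 0 passed. Col4a2, a collagen IV chain, had log2 changes of -0.09, -0.23 and -0.28 (SE 0.10 each) and passed only without the 6 libraries high in small-intestine RNA. Lrrn1 had -0.47 (SE 0.30), 0.26 (SE 0.29) and 0.42 (SE 0.29), Lrrn3 had 0 counts, and Lrrn4 had 92 counts in all. The 11 targets of the hypoxia response, listed because Zfp395 has been tied to it, had 0 past the test and 4, 8 and 7 negative changes.

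**Figure D3:**
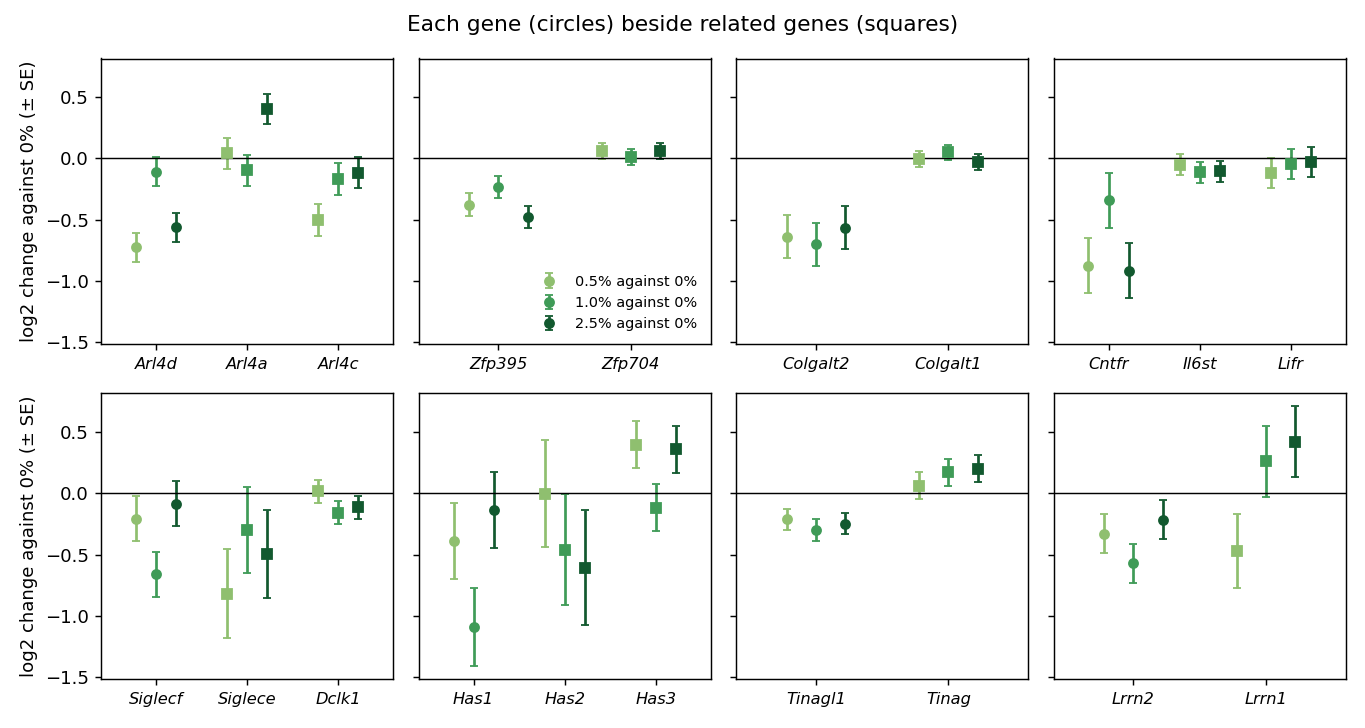
Log2 change against 0% (vertical axis, ± SE) of 8 of the 9 genes (circles) and of genes related to them (squares) at the 3 doses (colours). Zfp704, Colgalt1, Il6st and Lifr lie near 0, and Arl4a at 2.5% and Tinag lie above it.

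The genes were chosen for low values on diets and not for differences between mice on the same diet, so the latter were tested. The marker lists and these tests were, however, chosen with earlier results of these data known. Each gene's log2 CPM was centred on its diet mean and compared with the centred mean of each of 16 marker lists, which gave 144 relations. Of these, 1 passed a permutation test with 100000 shuffles within diets and adjustment over the 144. Akna was higher in mice with more enteroendocrine RNA (Pearson r = 0.715, permutation p = 0.00011, adjusted p = 0.0158; Spearman rho = 0.782, permutation p = 0.00017, adjusted p = 0.0245; n = 21). Without the 2 libraries farthest from the median of the list r was 0.644, and leaving out each library in turn gave 0.668 to 0.829. All 8 of the list's genes with counts had a positive r with Akna, Tph1, the enzyme of serotonin synthesis, the highest (0.616), and Neurod1 was at 0. With a prior count of 0.5 in place of 2, and without 0% replicate 2, 0% replicate 4 or 1.0% replicate 1, 0 relations passed. The summed level of the list was 52.0 to 89.5 CPM on the control diet and 60.6 to 108, 67.7 to 115 and 80.1 to 123 CPM on the diets of rising dose. Both ends of that range were higher at each larger dose, and the mean of Akna was highest at 0%. Of the 7 tested genes of the list, 2, 0 and 1 had negative changes at the 3 doses, with medians of 0.17, 0.26 and 0.37. At every dose 0 of them passed edgeR's quasi-likelihood test. The part of the list in the diet differences of Akna was not tested.

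At an unadjusted p under 0.05 there were 18 of the 144 relations, some of which would arise by chance alone. The largest r was that of Lrrn2 with markers of enteric neurons and glia (r = 0.725, permutation p = 0.00363, adjusted p = 0.183; rho = 0.594, permutation p = 0.0113, adjusted p = 0.316), and r was 0.496 without the 2 farthest libraries. Of the 13 genes of that list, 12 had a positive r with Lrrn2, Tubb3 (0.823) and Nos1 (0.792) the highest, and none was at 0. Zfp395 also had a positive r with that list (r = 0.520, permutation p = 0.0470, adjusted p = 0.391; r = 0.350 without the 2 farthest libraries). The list summed to 111 to 194 CPM on the control diet and 105 to 124, 97.3 to 172 and 69.1 to 174 CPM on the diets of rising dose. Of its 13 genes, 12, 11 and 12 had negative changes at the 3 doses, with medians of -0.29, -0.16 and -0.19, and 0 passed. Their part in the low level of Lrrn2 was not tested. Macrophage markers were also mostly negative, 10, 9 and 9 of 10, with medians of -0.27, -0.21 and -0.14 and 0 past the test, and their part in the levels of the 9 genes was not tested. Siglecf had r = 0.655 with mesothelium (permutation p = 0.00381, adjusted p = 0.183; rho = 0.597, permutation p = 0.0105, adjusted p = 0.316), 0.543 without the 2 farthest libraries and 0.199 without the 6 libraries high in small-intestine RNA. Of the 10 mesothelium genes, 7 had a positive r with it. With tuft cells it had r = 0.530 (permutation p = 0.0252, adjusted p = 0.329; rho = 0.368, permutation p = 0.121, adjusted p = 0.530), 0.480 without the 2 farthest libraries, and 9 of the 12 genes had a positive r. Relations of like size were found with fibroblasts (r = 0.564, permutation p = 0.0184, adjusted p = 0.329; rho = 0.595, permutation p = 0.0119, adjusted p = 0.316; r = 0.662 without the 2 farthest libraries). With B and plasma cells r was 0.546 (permutation p = 0.0194, adjusted p = 0.329; rho = 0.483, permutation p = 0.0401, adjusted p = 0.530; r = 0.527 without the 2 farthest libraries). With macrophages it was 0.498 (permutation p = 0.0301, adjusted p = 0.329; rho = 0.460, permutation p = 0.0497, adjusted p = 0.530; r = 0.330 without the 2 farthest libraries). These r were 0.222, 0.205 and 0.282 without the 6 libraries high in small-intestine RNA, and that with tuft cells was 0.622. With the sparse eosinophil list r was 0.005 (permutation p = 0.985, adjusted p = 0.994; rho = 0.130, permutation p = 0.602, adjusted p = 0.896).

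**Figure D4:**
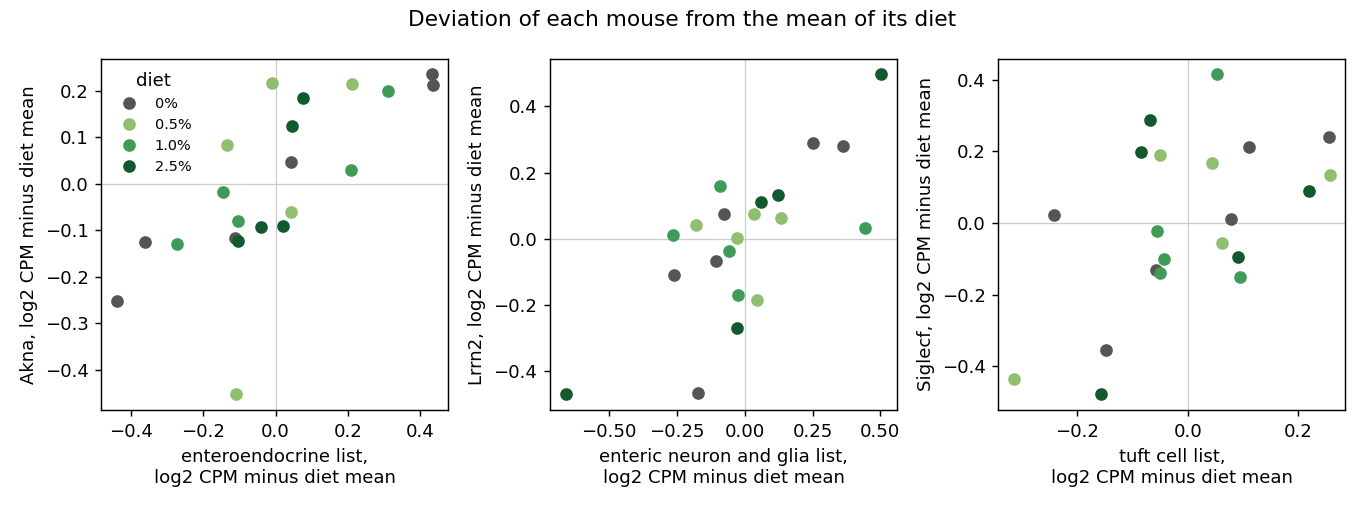
Deviation of each mouse from the mean of its diet in log2 CPM, for Akna, Lrrn2 and Siglecf (vertical axes) against the mean of the enteroendocrine, enteric neuron and glia, and tuft cell lists (horizontal axes). Each of the 21 points is 1 mouse, coloured by diet; the points rise together in the first panel (r = 0.715), and the second (r = 0.725) and the third (r = 0.530) did not pass the test after adjustment.

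Of the 36 pairs of the 9 genes, 0 passed the permutation test after adjustment and 1 had an unadjusted p under 0.05, Has1 with Tinagl1 (r = -0.563, permutation p = 0.0303, adjusted p = 0.636; rho = -0.460, permutation p = 0.0504, adjusted p = 0.427; r = -0.340 without the 2 farthest libraries). Arl4d and Akna, which share a dose shape, had r = -0.483 (permutation p = 0.0816, adjusted p = 0.636; rho = -0.449, permutation p = 0.0712, adjusted p = 0.427; r = -0.389 without the 2 farthest libraries). Small intestine markers were high in 6 libraries, by a cut set after the values were seen. These 6 were themselves spread from 2.56 to 5.73 on the log2 scale. No r over all libraries was taken, so a relation over all 21 was not tested. Within the 15 libraries at the low level r ran from -0.156 for Lrrn2 to 0.340 for Tinagl1, and none of the 9 relations passed (adjusted permutation p = 0.959 for each).

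Of 13152 genes averaging at least 1 CPM, those most like each of the 9 within diets (Pearson r of centred log2 CPM, 21 libraries) are given as a description. They are the highest r of a search over all these genes, which favours large values, and none was tested. Lrrn2 was nearest to Acsl6 (0.898), Kcnab2 (0.898) and Magee1 (0.892). Has1 was nearest to Sec62 (0.913), Myo1f (0.846) and Yme1l1 (0.812), and Siglecf to Jdp2 (0.841), Siae (0.801) and Psmb9 (0.782). Akna was nearest to Eif3i (0.787), Spn (0.782), a sialomucin of leukocytes, and Klhl6 (0.776), a gene of B cells. Arl4d was nearest to Hp1bp3 (0.801), Enpp5 (0.763) and Fam151b (0.762), and Zfp395 to Tspyl2 (0.832), Syt6 (0.792) and Gsg1l (0.779). Tinagl1 was nearest to Esyt1 (0.818), Ptgr1 (0.80) and Mrpl43 (0.774), Cntfr to Tmem86b (0.761), Dagla (0.746) and Gpc6 (0.722), and Colgalt2 to Sel1l (0.736), Tifab (0.731) and Vnn1 (0.722).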

How the data were processed

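Cecum RNA of 21 mice on 4 diets was sequenced from mRNA libraries whose kit marks strand, per the labels' protocols. The values are whole-number counts for each gene and library, not normalized, in a single table that the authors deposited. The build is mm10, per the submitters' processing notes. The aligner, counter, strand option and annotation release were not given in the sources used here. Gene names were matched through GENCODE M21, which held 25268 of 25361 identifiers (93 were not found), and promoter windows came from RefSeq (GRCm38.p6).

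Counts were scaled with TMM and tested with edgeR 4.0.16 (quasi-likelihood, robust; R 4.3.3) in 1 fit of all diets without covariates, on the 15652 genes that passed edgeR's filter on low counts. All 9 genes passed that filter. The p-values were two-sided and adjusted by Benjamini-Hochberg over all tested genes, with a threshold of 0.05. Log2 CPM for relations between mice used a prior count of 2. Permutation tests drew 100000 shuffles within diets and were two-sided (Python 3.11.15, NumPy 2.4.6). Alternatives used DESeq2 1.42.0, limma 3.58.1 (voom), other scalings, no filter, covariates and left-out libraries. The scripts were tested on simulated data.

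The genes, the lists of related genes and markers and the tests were chosen with earlier results of these data known. Named beside the 9 genes were a fixed list of their relatives and partners, any related gene that passed the test, and the 3 genes most like each of the 9 within diets. A gene of that list, too low to be tested, is not reported here. The small intestine group was defined after seeing the values, as the libraries above the first gap of at least 1 on the log2 scale above the median. Tmem2 is listed under its newer name Cemip2, and Slc2a4rg had no row. Stat3, Col4a2, Cntf, Ear6 and Mzb1 were named after their values were seen.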

Additional observations from a re-analysis of the deposited data

Results flagged for a closer look

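In each of the 36 combinations of gene and diet, the highest and the lowest mouse were compared with the others by Dixon's test at the 95% level. Chance alone gives about 1 such mouse in 20 groups, and 2 were found here. Siglecf at 1.0% had 1 mouse, replicate 1, far above the rest: 1.71 CPM beside 1.14 to 1.25 in the other 4. That library also had the highest mean of the small intestine markers (5.73 on the log2 scale), and its part in this value was not tested. Tinagl1 at 2.5% had 1 mouse, replicate 2, far below the rest: 52.6 CPM beside 64.0 to 67.4 in the other 4.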

How the results depend on the processing

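The number of the 9 genes called lower was 1 at 0.5% and became 0 with limma voom, with only the 2 diets compared in the fit, without the 6 libraries high in small-intestine RNA and without the mice numbered above 70, where the log2 change of Arl4d stayed between -0.81 and -0.68 (-0.72 as reported). Leaving out each library in turn gave 0 to 1. At 2.5% the number was 1, and it was 3 with DESeq2 (Arl4d, Cntfr, Zfp395), 0 with limma voom, 0 with only the 2 diets compared, 0 without the mice numbered above 70, and 0 to 2 with each library left out in turn. DESeq2 called 3 genes (Arl4d, Colgalt2, Zfp395) in the mean of the diets and 1 (Zfp395) in the straight line over dose, where edgeR called 0 in each. At 1.0% the number was 0 under every alternative run. Related genes called were 2 without the 6 libraries high in small-intestine RNA (Arl4a, Col4a2) and 0 to 1 with each library left out. Relations with marker lists past the threshold were 0 with a prior count of 0.5 and 0 to 1 with each library left out, and pairs of the 9 genes were 0 throughout. The cause of these moves was not tested. Of the log2 changes of single genes under the alternatives, 1289 moved by less than the spread between mice and kept their side of the threshold, 8 passed it newly and 35 no longer passed it. Leaving out 1 of 5 or 6 mice can hardly move a mean by that spread, so stability is not read from the 1289. Siglecf at 2.5%, for example, ran from -0.21 to 0.02 beside -0.09 as reported. Among the log2 changes that passed in neither fit, 8 changed sign under an alternative: Siglecf at 2.5% once, without 2.5% replicate 3, and the straight-line values of Siglecf (3) and Has1 (4). Depth limits Has1 and Siglecf most. The p-values rest on 5 or 6 mice a diet. No paired analysis was possible because the labels give the mice of different diets no shared numbers.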

Other observations

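Some relations between mice of the same diet had an unadjusted permutation p under 0.05 and did not pass after adjustment over the 144. Tinagl1 had a positive r with epithelial markers (r = 0.546, permutation p = 0.0217, adjusted p = 0.329; rho = 0.440, permutation p = 0.0655, adjusted p = 0.530; r = 0.385 without the 2 farthest libraries). Its r with T cell markers was negative (r = -0.505, permutation p = 0.0318, adjusted p = 0.329; rho = -0.469, permutation p = 0.0464, adjusted p = 0.530; r = -0.353 without the 2 farthest libraries). So was its r with mesothelium (r = -0.522, permutation p = 0.0227, adjusted p = 0.329; r = -0.371 without the 2 farthest libraries). With B and plasma cells it was also negative (r = -0.510, permutation p = 0.0318, adjusted p = 0.329; r = -0.316 without the 2 farthest libraries). Has1 had a positive r with T cell markers (r = 0.595, permutation p = 0.00926, adjusted p = 0.329; rho = 0.548, permutation p = 0.0132, adjusted p = 0.316; r = 0.512 without the 2 farthest libraries). Lrrn2 had a positive r with smooth muscle markers (r = 0.627, permutation p = 0.0190, adjusted p = 0.329; rho = 0.469, permutation p = 0.0705, adjusted p = 0.530; r = 0.351 without the 2 farthest libraries).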
